A study of Bos taurus with 12 samples.

Results

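Chromaffin cells, which make and release catecholamines in the adrenal medulla, were cultured from cattle, given 10 µM histamine for 6 h, and compared with untreated cells of the same kind. The comparison uses 6 of the series' 12 single-colour Affymetrix bovine arrays, 3 labelled as histamine-treated and 3 labelled as untreated control, chosen by their titles alone. The other arrays are 3 of cells given interleukin-6 (IL6, 10 nM, 24 h) and 3 of cells given human interferon-alpha (IFNα, 1 nM, 24 h), and they enter here as a shared estimate of spread and as values set beside those of histamine. All the cells came from adrenal glands, no genotype or strain is given, and the labels give no time in culture for the untreated cells. The design describes each set of 3 as technical repeats, so the p-values below measure the spread between these arrays and not between cultures or animals.

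Histamine is a local messenger released by mast cells and other cells. On chromaffin cells it is known to act mainly through the H1 receptor (HRH1), which couples through Gq proteins to phospholipase C, raises inositol trisphosphate and cytosolic calcium, and activates protein kinase C. The rise in calcium drives the release of catecholamines and peptides from large dense-core granules, and it also feeds into transcription through factors such as CREB, AP-1 and EGR1.

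Values are log2 expression from robust multi-array averaging (RMA), a method that summarises the probes of a probe set, so a difference of 1 is a doubling. A gene is read from its brightest probe set, and "rose" or "fell" is used of a gene whose change was at least 1.5-fold with a limma adjusted p (Benjamini-Hochberg over 24016 probe sets) under 0.05. The standard error (SE) is that of the difference of group means, n = 3 arrays a group. All 12 arrays had nearly the same mean (6.79) and maxima between 14.01 and 14.14, and arrays of one group correlated at 0.993 to 0.998 over all probe sets. A gene whose lower group mean lay below 5.02, the lowest of the arrays' lower quartiles, is called dim here, and its fold change is best read as a minimum. These are bulk samples, in which fewer cells of a type and less RNA per cell cannot be told apart. The gene lists below were chosen with earlier results of these data known, so their counts describe these arrays only.

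Histamine changed 1369 of 24016 probe sets, which is 5.7% of those tested. Of these, 717 were higher (2.99%) and 652 were lower (2.71%), and in 1367 the 3 histamine arrays lay on one side of the 3 untreated arrays. That separation alone was common, since 43.7% of all probe sets and 53.4% of genes had it. An adjusted p under 0.05 with no fold minimum was also common (31.6% of probe sets). Among the 9155 genes with a probe set of a single symbol, 345 rose (3.77%) and 294 fell (3.21%). These shares are the ones to set beside the count of each gene list below. Rises reached further than falls. At 2-fold or more 78 genes were higher and 31 lower, and at 4-fold or more 13 were higher and 0 lower (limma; 4501 of the 9155 genes, 49.2%, had an unadjusted p under 0.05 in either direction). The median change of all genes was 0.01 on the log2 scale.

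**Figure D1:**
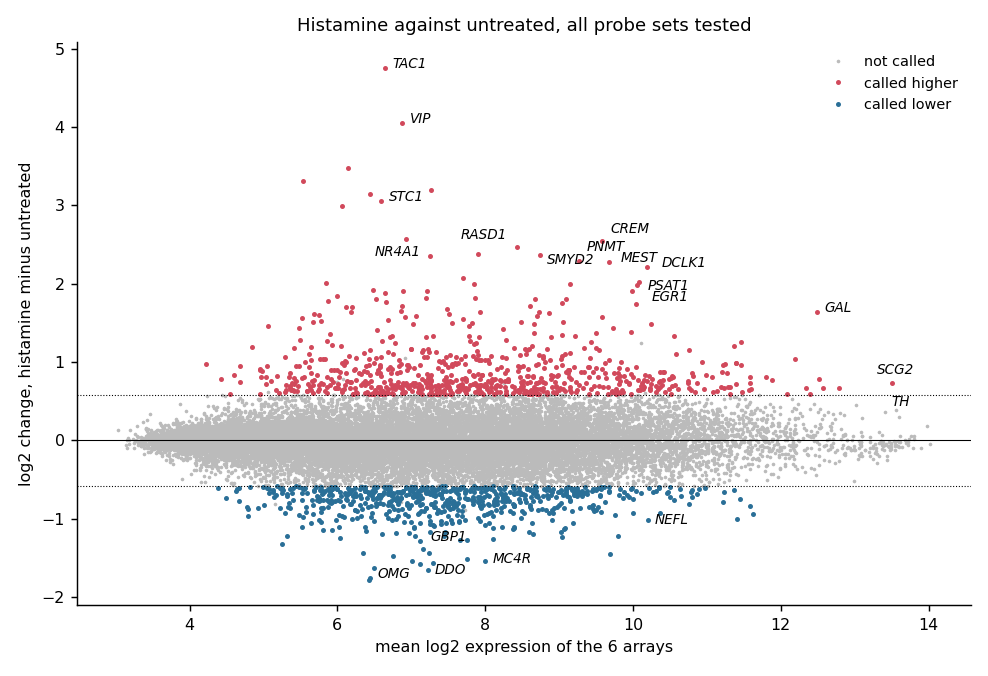
Each point is a probe set, with its mean log2 expression over the 6 compared arrays on the horizontal axis and its log2 change (histamine minus untreated) on the vertical axis; dotted lines mark a 1.5-fold change and named points are the brightest probe sets of those genes. Rises extend to 4.75 (TAC1) and falls to -1.76 (OMG) among named genes, and SCG2 and TH lie near the top of the scale.

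Neuropeptide and peptide hormone transcripts included the 2 largest changes of the comparison, TAC1 and VIP. Of 25 measured members of this list, 9 rose (36%) and 16 were not called, and the list's median change was 0.16 against 0.01 for all genes. The 9 were TAC1, VIP, STC1, FST, GAL, NPPA, SST, NTS and INHBA. When the test was limited to the probe sets above median brightness, TAC1, VIP, SST, NTS and INHBA were not among them and the count of rises was 4. TAC1, the precursor of substance P and neurokinin A, read 4.33, 4.27 and 4.19 in the untreated arrays and 9.07, 8.88 and 9.10 after histamine. This is a move from the dim range to well within the measured range, 27-fold or 4.75 on the log2 scale (SE 0.09, adjusted p 8.39e-14). A dimmer probe set of TAC1 changed by 3.00. VIP, vasoactive intestinal peptide, a neuropeptide that raises cyclic AMP in its target cells, read 4.82, 4.94 and 4.81 untreated and 8.91, 8.86 and 8.94 after histamine. Its change was 4.05 (16.5-fold, SE 0.09, adjusted p 5.03e-13), again from a dim starting level.

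Galanin (GAL), a neuropeptide of sensory and neuroendocrine cells, was already abundant and rose further. Its untreated arrays read 11.70, 11.64 and 11.65, and its histamine arrays 13.28, 13.33 and 13.31, with no overlap (log2 change 1.64, SE 0.03, adjusted p 8.2e-14). NPPA, the precursor of atrial natriuretic peptide, read 6.86, 6.54 and 6.70 untreated and 8.42, 8.26 and 8.26 after histamine (1.61, SE 0.08, adjusted p 4.44e-09). Somatostatin (SST), an inhibitory peptide, changed by 1.04 (SE 0.12), with untreated arrays at 5.11, 5.26 and 5.35 and histamine arrays at 6.16, 6.07 and 6.60. Neurotensin (NTS) changed by 0.81 (SE 0.13, adjusted p 0.000269). The groups did not overlap for any of these genes.

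FST and INHBA act on one pathway: INHBA encodes a subunit of activin, and FST encodes follistatin, a secreted protein that binds and neutralises activin. FST read 5.99, 5.99 and 6.13 untreated and 7.55, 7.73 and 7.79 after histamine (1.65, SE 0.10, adjusted p 2.11e-08). INHBA changed less, by 0.71 (SE 0.10, adjusted p 5.59e-05). STC1, the secreted glycoprotein stanniocalcin-1, read 5.22, 4.89 and 5.10 untreated and 8.33, 8.27 and 7.76 after histamine. Its change of 3.05 carried an SE of 0.77 (adjusted p 0.00672) because the shared spread takes in the IL6 arrays, which read 5.37, 7.80 and 8.96. Fitted on the 6 compared arrays alone, the same change had an SE of 0.14 (adjusted p 1.41e-08). With an outlier-robust estimate of the spread over 12 arrays its adjusted p was 0.0504, just above the threshold.

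Enkephalin precursor PENK, the main opioid peptide gene of these cells, was near the top of the scale in both groups (13.90, 13.86 and 13.90 untreated, 14.07, 14.08 and 14.05 after histamine). Its change of 0.18 (SE 0.02, adjusted p 7.02e-06) did not reach 1.5-fold, and the scale leaves little room above such levels.

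**Figure D2:**
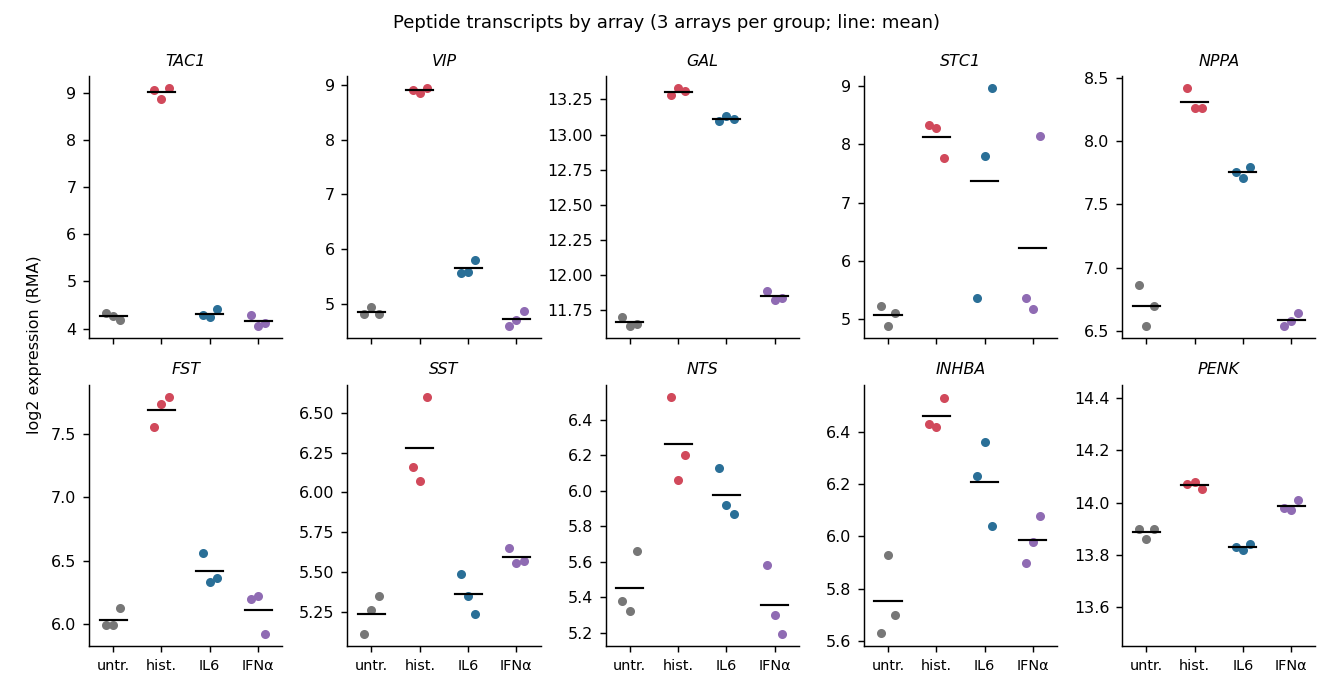
Log2 expression (RMA) of 10 peptide genes in each array, by group, with a line at the mean of 3 arrays; vertical axes differ between genes. TAC1 and VIP are near 4 to 5 in the untreated arrays and near 9 after histamine, GAL is also above 13 in the IL6 arrays, and STC1 ranges from 5.37 to 8.96 among the IL6 arrays.

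Among genes of catecholamine synthesis, storage and breakdown, 3 of 16 rose and 1 fell (18.8% and 6.25%), with a list median of -0.08. PNMT, the enzyme that converts noradrenaline to adrenaline, had the largest change of the list. Its untreated arrays read 8.08, 8.06 and 8.22 and its histamine arrays 10.60, 10.48 and 10.16. The rise was 4.9-fold (log2 2.29, SE 0.23, adjusted p 2.88e-06). SLC18A2, the vesicular transporter that loads catecholamines into granules, read 11.56, 11.45 and 11.48 untreated and 12.25, 12.25 and 12.29 after histamine (0.77, SE 0.18, adjusted p 0.00423). GCH1, which makes the first intermediate of the tyrosine hydroxylase cofactor tetrahydrobiopterin, rose by 0.71 (SE 0.10, adjusted p 4.62e-05). Its feedback regulatory protein GCHFR fell by 0.64 on the log2 scale (SE 0.12, adjusted p 0.00086), from 6.97, 7.08 and 7.03 to 6.24, 6.52 and 6.41. Without histamine repeat 1 the GCHFR change was -0.56, short of 1.5-fold.

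The enzymes before PNMT in the pathway were not called. Tyrosine hydroxylase (TH), the rate-limiting step, read 13.45, 13.51 and 13.38 untreated and 13.75, 13.76 and 13.73 after histamine, a change of 0.30 (SE 0.03, adjusted p 2.83e-06) near the top of the scale. DDC, which forms dopamine, changed by -0.07 (SE 0.04, adjusted p 0.228). Dopamine beta-hydroxylase (DBH), which makes noradrenaline, read 11.51, 11.25 and 11.15 untreated and 10.94, 10.91 and 10.31 after histamine. Its groups did not overlap, and its change of -0.58 (SE 0.23) had an adjusted p of 0.0647 over 12 arrays and of 0.00532 over the 6 compared arrays, just short of 1.5-fold in both. After quantile normalization it was called at -0.64 (adjusted p 0.0496). The noradrenaline uptake transporter SLC6A2 changed by -0.34 (adjusted p 0.0943) and monoamine oxidase MAOA by 0.41 (adjusted p 0.000327), both under 1.5-fold.

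Granins and peptide-processing genes had 3 rises among 12 (25%; list median 0.08). SCG2, secretogranin II, a granule matrix protein and peptide precursor, read 13.18, 13.10 and 13.13 untreated and 13.90, 13.87 and 13.83 after histamine (0.73, SE 0.03, adjusted p 7.93e-10). PAM, the enzyme that amidates peptides such as VIP, substance P and galanin, read 11.08, 11.04 and 11.00 untreated and 11.79, 11.71 and 11.77 after histamine (0.72, SE 0.04, adjusted p 9.66e-09). PTPRN, a membrane protein of dense-core granules, rose by 0.66 (SE 0.11, adjusted p 0.000344), and by 0.58, short of 1.5-fold, without untreated repeat 3. PCSK1, a prohormone convertase, changed by 0.55 (adjusted p 0.000324), below the fold minimum. CHGA and CHGB, the chromogranins, changed by -0.07 (adjusted p 0.2) and 0.05 (adjusted p 0.0694), both near the top of the scale, and the sign for CHGA turned when all its probe sets were averaged (0.02).

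Of 25 genes of the exocytosis machinery, 1 rose and 1 fell (4% each), close to the shares over all genes. NSF, the ATPase that takes spent SNARE complexes apart, rose by 0.74 (SE 0.05, adjusted p 2.73e-08). SYT11, a synaptotagmin that does not bind calcium, fell by 0.60 on the log2 scale (SE 0.05, adjusted p 2.12e-07), and by 0.58, short of 1.5-fold, without histamine repeat 2.

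**Figure D3:**
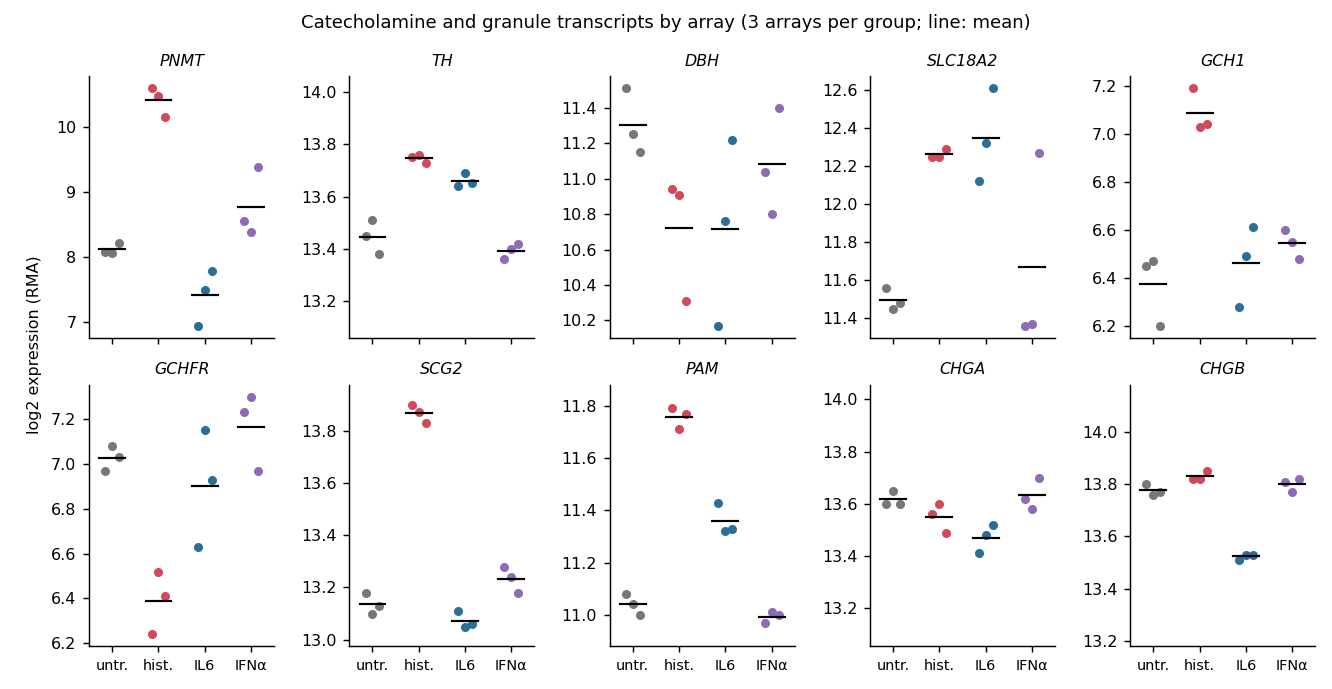
Log2 expression (RMA) of 6 catecholamine genes and 4 granule genes in each array, by group, with a line at the mean of 3 arrays; vertical axes differ between genes. PNMT, SLC18A2, GCH1, SCG2 and PAM are higher in all 3 histamine arrays than in any untreated array, GCHFR is lower, and CHGA changes by -0.07.

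The histamine receptor gene HRH1 read 8.74, 8.68 and 8.71 untreated and 9.08, 8.91 and 9.07 after histamine, a change of 0.31 (SE 0.08, adjusted p 0.00893) that is below 1.5-fold. Of 37 measured genes of Gq and calcium signalling, 1 rose and 1 fell (2.7% each), close to the shares over all genes (3.77% and 3.21%), and the list median was -0.09. ATP2A2, the pump that returns calcium to the endoplasmic reticulum, rose by 0.68 (SE 0.05, adjusted p 2.2e-07), from 10.92, 11.04 and 10.96 to 11.69, 11.65 and 11.62. CAMK2G, a calmodulin-dependent kinase subunit, fell by 0.90 on the log2 scale (SE 0.10, adjusted p 6.73e-06), from 7.08, 7.26 and 7.12 to 6.22, 6.44 and 6.10. Averaged over all its probe sets the CAMK2G change was -0.46. ITPR1, an inositol trisphosphate receptor, changed by -0.28 (adjusted p 0.000767).

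Among inhibitors that act back on signalling, 6 of 31 measured members rose (19.4%) and 1 fell (3.23%), with a list median of -0.02. RASD1, a Ras-like protein that dampens adenylyl cyclase signalling, read 7.26, 7.17 and 7.13 untreated and 9.69, 9.63 and 9.66 after histamine (5.55-fold, log2 2.47, SE 0.11, adjusted p 9.23e-10). SPRY2, a sprouty inhibitor of the ERK pathway, read 7.57, 7.45 and 7.59 untreated and 8.87, 8.87 and 9.13 after histamine (1.42, SE 0.08, adjusted p 1.1e-08). ERRFI1, an inhibitor of EGF receptors, rose by 1.15 (SE 0.20). RCAN1, an inhibitor of the calcium-activated phosphatase calcineurin, rose by 0.82 (SE 0.05, adjusted p 6.02e-08). The pseudokinase gene TRIB1 rose by 0.84 (SE 0.10), while its relative TRIB2 fell by 0.85 on the log2 scale (SE 0.24, adjusted p 0.0143). DUSP1, a phosphatase of MAP kinases, rose by 0.70 (SE 0.07, adjusted p 3.97e-06).

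Immediate early and other inducible transcription factors moved both ways. Of 38 measured, 8 rose (21.1%) and 5 fell (13.2%), and the list median was 0.13. BHLHE40, also of this list, changed by 0.60 and was not called over 12 arrays (adjusted p 0.105). It was called over the 6 compared arrays (SE 0.06, adjusted p 4.34e-06). CREM, a cyclic AMP responsive factor whose inducible short form represses the same sites, read 8.26, 8.40 and 8.25 untreated and 10.93, 10.80 and 10.81 after histamine (2.54, SE 0.10, adjusted p 2.52e-10). Its 6 probe sets ranged from -0.12 to 2.54 and 3 of them were called higher; the array table does not say which transcript form each one reads. NR4A1, an orphan nuclear receptor induced by calcium, read 6.16, 6.06 and 6.02 untreated and 8.34, 8.42 and 8.55 after histamine (2.36, SE 0.19, adjusted p 3.78e-07). FOS, a subunit of AP-1, read 6.92, 6.77 and 6.84 untreated and 9.04, 8.81 and 8.67 after histamine (2.00, SE 0.17, adjusted p 6.19e-07). EGR1, a zinc-finger factor, read 9.1, 9.0 and 9.08 untreated and 11.06, 10.93 and 11.14 after histamine (1.98, SE 0.18, adjusted p 9.6e-07). These 4 genes were 3.95- to 5.83-fold above the untreated arrays at 6 h.

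The smaller rises in the same list were the clock repressor CRY1 (1.03, SE 0.08), the nuclear receptor NR4A2 (0.83, SE 0.09), the EGR corepressor NAB2 (0.68, SE 0.08) and the bZIP repressor NFIL3 (0.62, SE 0.05). For NR4A2 and NAB2 the mean over all probe sets of the gene was under 1.5-fold, at 0.22 and 0.41. JUN, a partner of FOS in AP-1, changed by -0.33 (SE 0.06, adjusted p 0.000413), FOSB by 0.04 and JUNB by 0.48, none of them past 1.5-fold. A dimmer JUN probe set was called lower (-0.88, SE 0.31, adjusted p 0.0431). It read 9.92, 9.95 and 9.81 untreated and 9.51, 9.54 and 7.99 after histamine, so histamine repeat 3 made up most of that change.

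Falling factors were KLF4, SOX4, ID2, ATF3 and ID1. KLF4, a zinc-finger factor that restrains growth, fell by 0.80 on the log2 scale (SE 0.16, adjusted p 0.00146). SOX4, a factor of neural development, read 7.54, 7.26 and 7.56 untreated and 6.92, 6.70 and 6.37 after histamine (-0.79, SE 0.20, adjusted p 0.00629). ID1 and ID2, which block basic helix-loop-helix factors, fell by 0.66 (SE 0.06) and 0.75 (SE 0.06) on the log2 scale. ATF3, a stress-inducible factor, was abundant and fell from 10.29, 10.33 and 10.30 to 9.56, 9.59 and 9.59 (-0.73, SE 0.10, adjusted p 7.08e-05). Averaged over all its probe sets, ID1 changed by -0.33, under 1.5-fold.

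**Figure D4:**
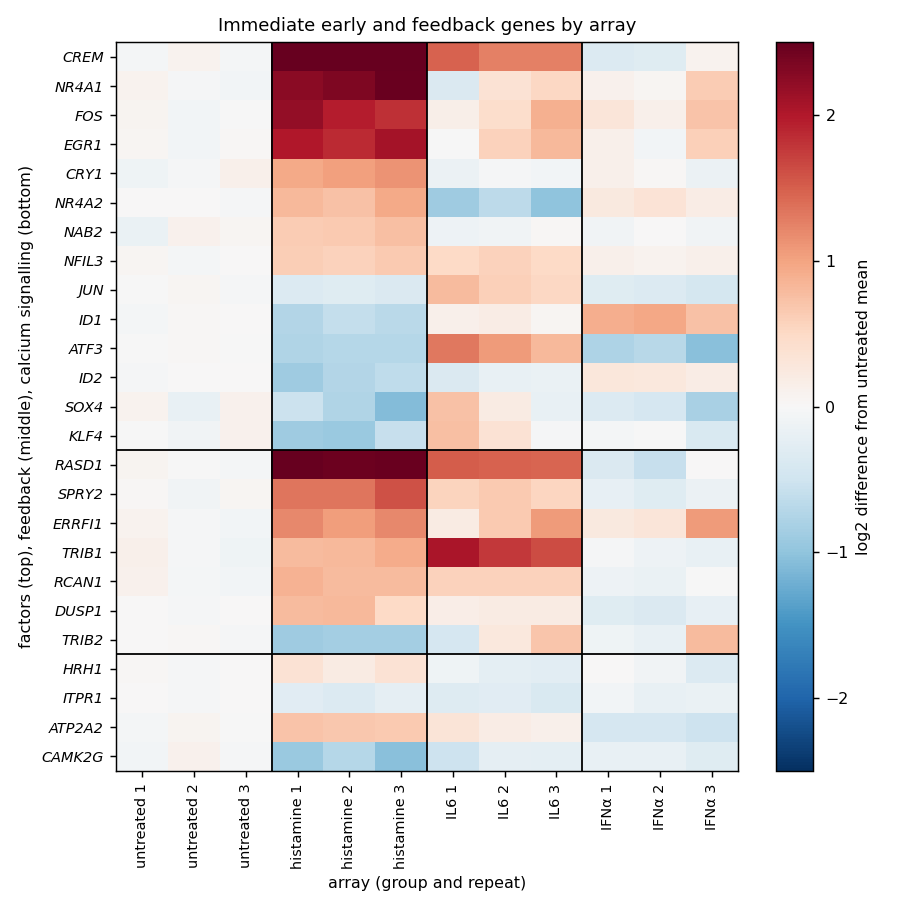
Colour gives the log2 difference of each array from the mean of the 3 untreated arrays (scale cut at 2.5 either way) for transcription factors, feedback inhibitors and genes of calcium signalling, with arrays in columns by group. CREM, NR4A1, FOS, EGR1 and RASD1 are high in all 3 histamine arrays, ATF3 is lower after histamine but higher after IL6 (log2 change 1.07), NR4A2 is higher after histamine but lower after IL6 (-0.85), and HRH1 changes by 0.31.

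Of 25 listed ion channels 1 rose (4%, against 3.77% of all genes; list median 0.07): KCNE1, an accessory subunit of slow potassium channels, went from 5.57, 5.89 and 5.66 to 7.52, 7.54 and 7.71 (1.88, SE 0.08, adjusted p 1.35e-09). KCNB2, a voltage-gated potassium channel outside that list, was among the 25 largest rises (1.81, SE 0.08). Of 40 receptors of transmitters and peptides, 2 rose and 3 fell (5% and 7.5%, against 3.77% and 3.21% of all genes; median 0.04). NTRK2, which binds the neurotrophin BDNF, read 7.91, 7.92 and 7.89 untreated and 9.50, 9.50 and 9.62 after histamine (1.63, SE 0.06, adjusted p 1.61e-10). PTGFR, the prostaglandin F receptor, read 6.39, 6.10 and 6.31 untreated and 8.01, 7.83 and 7.72 after histamine (1.59, SE 0.15, adjusted p 1.46e-06).

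Receptor transcripts that fell included MC4R, a melanocortin receptor, from 8.86, 8.72 and 8.74 to 7.25, 7.10 and 7.35 (-1.54, SE 0.23, adjusted p 0.000127). PTGER3, a prostaglandin E receptor, fell by 0.73 on the log2 scale (SE 0.13, adjusted p 0.000641). CHRNB4, a subunit of the nicotinic receptor through which splanchnic nerves drive these cells, fell by 0.67 (SE 0.15, adjusted p 0.00302), and by 0.50, short of 1.5-fold, without histamine repeat 3. Its partner CHRNA3 changed by 0.17 (adjusted p 0.267). HTR2B, a Gq-coupled serotonin receptor that is no member of the list, was among the 25 largest falls, from 8.38, 8.30 and 8.21 to 7.11, 6.99 and 6.96 (-1.28, SE 0.11, adjusted p 6.01e-07).

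Matrix, protease and plasminogen genes had 7 rises among 25 (28%; median 0.17): SPP1, TIMP3, MMP9, THBS2, TIMP1, FN1 and PLAU. SPP1, the secreted phosphoprotein osteopontin, went from 6.43, 6.05 and 6.38 to 8.17, 7.95 and 8.19 (1.82, SE 0.15, adjusted p 4.45e-07). The other 6 rose by 0.62 to 0.74, among them the metalloproteinase inhibitors TIMP1 (0.67, SE 0.04) and TIMP3 (0.74, SE 0.08). MMP9 and PLAU fell short of 1.5-fold without histamine repeat 3, at 0.58 and 0.575, and FN1 did so when all its probe sets were averaged (0.30). Of 17 fibroblast and mural markers 3 rose (17.6%, against 3.77% of all genes), MGP among them. The probe sets of MGP disagreed, and its mean over all of them was -0.27. With the probe sets of each gene averaged, 1 of the 17 rose. Read from the brightest probe sets, the mean log2 level of the 17 went from 7.99 to 8.01 in the untreated arrays to 8.32 to 8.34 in the histamine arrays. None of the 17 was dim, and the part of such cells in the matrix result was not tested.

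Growth factor and neurite genes had 2 rises and 1 fall among 30 (6.67% and 3.33%, against 3.77% and 3.21% of all genes), with a list median of 0.05. VEGFC, a lymphatic growth factor, and TGFB2, a transforming growth factor, both rose by 0.94 (SE 0.16 and 0.14). The neurofilament gene NEFL fell from 10.69, 10.70 and 10.73 to 9.56, 9.70 and 9.80 (-1.02, SE 0.06, adjusted p 2.56e-08). VEGFA, the main angiogenic factor, read 9.48, 9.52 and 9.44 untreated and 10.73, 10.71 and 10.74 after histamine. Its change of 1.25 was not called over 12 arrays (adjusted p 0.12), in which the IL6 arrays spread from 9.41 to 11.95, and was called over the 6 compared arrays (SE 0.04, adjusted p 9.76e-10).

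In cytokines, chemokines and adhesion genes 2 rose and 2 fell among 37 (5.41% each, against 3.77% and 3.21% of all genes), with a list median of 0.11. The chemokine CXCL14 rose by 1.43 (SE 0.16) from a dim level, and the cytokine IL18 rose by 0.97 (SE 0.09). CXCL12 fell by 0.64 (SE 0.07) and the endothelial adhesion gene SELP by 0.82 (SE 0.11) on the log2 scale, the last to a dim level. All 4 lay outside the probe sets above median brightness, where the list had 0 calls. PTGS2, the inducible cyclooxygenase, was dim and changed by 0.34 (adjusted p 0.0442), under 1.5-fold.

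Interferon response genes had the lowest median of the lists read, -0.34, and 6 of its 33 measured members fell (18.2%) while 27 were not called. UBA7, the enzyme that activates the ubiquitin-like protein ISG15, went from 8.08, 8.17 and 8.05 to 7.08, 7.10 and 7.25 (-0.96, SE 0.06, adjusted p 3.59e-08). DHX58, an RNA sensor regulator, fell by 0.81 (SE 0.08), and IRF9, the DNA-binding part of the interferon-activated complex ISGF3, fell by 0.74 (SE 0.07) on the log2 scale. PARP9 and its partner DTX3L fell by 0.79 (SE 0.12) and 0.76 (SE 0.10). GBP4, a guanylate-binding protein, fell by 0.64 (SE 0.09) to a dim level, and by 0.53, short of 1.5-fold, without untreated repeat 3. GBP1, which is outside the list, was among the 25 largest falls, from 7.93, 7.90 and 7.72 to 6.51, 6.41 and 6.49 (-1.38, SE 0.08, adjusted p 1.83e-08).

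The untreated arrays themselves differed in these genes. Relative to the untreated mean, the list's mean was 0.17 in untreated repeat 1 and -0.09 and -0.08 in repeats 2 and 3, against -0.32, -0.35 and -0.31 in the histamine arrays. ISG15 shows the spread, with 8.78, 7.82 and 7.66 untreated and 8.14, 7.63 and 7.73 after histamine (-0.25, adjusted p 0.423). MX1, an antiviral GTPase, read 8.12, 7.74 and 7.58 untreated and 7.38, 7.24 and 7.28 after histamine (-0.51, adjusted p 0.00119), under 1.5-fold, and was called without untreated repeat 3 (-0.63). With any 1 array left out, 6 to 8 members of the list fell.

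Heat shock and oxidative stress genes had 8 rises and 1 fall among 25 (32% and 4%), with a list median of 0.33. The antioxidant members that rose were TXNRD1 (thioredoxin reductase; 0.87, SE 0.06), SRXN1 (sulfiredoxin; 1.00, SE 0.11) and TXN (thioredoxin; 0.60, SE 0.04), besides HMOX1. TXNRD1 went from 10.84, 10.72 and 10.75 to 11.58, 11.61 and 11.72. Among chaperone genes BAG3 (0.83), HSPH1 (0.66), HSPA4 (0.65) and DNAJB1 (0.61) rose and HSPB8, a small heat shock protein, fell by 0.72 on the log2 scale (SE 0.04, adjusted p 1.66e-08). Without histamine repeat 2 the DNAJB1 change was 0.57, short of 1.5-fold. TXN fell short after quantile normalization (0.52) and after cyclic loess (0.58), and HSPH1 when all its probe sets were averaged (0.39).

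HMOX1, heme oxygenase 1, read 8.86, 8.77 and 8.77 untreated and 10.34, 10.46 and 10.31 after histamine (1.57, SE 0.51, adjusted p 0.0292). The cytokine arrays ranged from 8.84 to 10.83 after IL6 and from 9.68 to 12.03 after IFNα, and they enter the shared spread. Leaving out any 1 of the 6 compared arrays took the adjusted p to between 0.06 and 0.0766, while over the 6 compared arrays alone it was 1.12e-09 (SE 0.05). Of 22 endoplasmic reticulum stress genes 3 rose (13.6%; median 0.18), namely the secreted protective factor MANF (0.81, SE 0.04) and the chaperone genes DNAJC3 (0.69, SE 0.06) and HSP90B1 (0.66, SE 0.08). The HSP90B1 change was 0.58, short of 1.5-fold, without untreated repeat 1.

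Glycolysis and hypoxia genes had 4 rises among 32 (12.5%; median 0.10), and this count depended on the cytokine arrays. PFKFB3, which makes the activator of glycolysis fructose 2,6-bisphosphate, went from 7.34, 7.38 and 7.17 to 8.34, 8.28 and 8.51 (1.08, SE 0.33, adjusted p 0.0209). TPI1, a glycolytic isomerase, rose by 0.96 (SE 0.30, adjusted p 0.0229), the collagen hydroxylase P4HA2 by 0.64 (SE 0.19, adjusted p 0.0189) and the phosphofructokinase PFKP by 0.61 (SE 0.13, adjusted p 0.00184). Relative to the untreated mean, this list's mean was 0.16 to 0.19 in the histamine arrays, but 0.08, 0.63 and 0.94 in the IL6 arrays and -0.05, -0.04 and 0.64 in the IFNα arrays. With the 3 cytokine arrays of raised hypoxia genes left out, a choice made after these values were seen, 7 genes of the list rose, as they did over the 6 compared arrays alone.

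The calls added to the glycolysis and hypoxia list over the 6 arrays were VEGFA, SLC2A1 (a glucose transporter, 0.74) and EGLN3 (an oxygen-sensing hydroxylase, 0.62). With any 1 array left out of the full set the count of rises ran from 1 to 7. The calls of PFKFB3 (histamine repeats 1 and 3, untreated repeat 3), P4HA2 (histamine repeat 3, untreated repeats 2 and 3), PFKP (histamine repeat 3, 0.54) and TPI1 (every compared array but histamine repeat 3) were each lost without the arrays named. LDHA, a hypoxia-responsive dehydrogenase, changed by 0.24 (SE 0.36, adjusted p 0.698), with a sign that turned when all its probe sets were averaged (-0.11), and HIF1A by 0.37 (SE 0.10, adjusted p 0.0115).

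Cholesterol and fatty acid genes had 1 fall among 19 (5.26%, against 3.21% of all genes), with a list median of 0.16. It was FDFT1, squalene synthase (-0.61, SE 0.13, adjusted p 0.00226), at -0.40 and not called without histamine repeat 3. Cell cycle genes had 1 rise and 1 fall among 33 (3.03% each, against 3.77% and 3.21% of all genes), with a list median of -0.06. They were the stress-induced kinase PLK3 (1.07, SE 0.12), which was not above median brightness, and the replication helicase subunit MCM7 (-0.86, SE 0.07).

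Cell type markers were read in the same arrays. Chromaffin markers were the brightest of these lists, with a mean log2 level of 11.56 to 11.59 untreated and 11.75 to 11.86 after histamine. Of 14 measured, 3 rose (PNMT, SLC18A2 and SCG2, above; median 0.16), and these enter that mean, PNMT with a change of 2.29. The other 11 were not called, and over the 14 markers 9 changes lay above 0 and 5 below. Adrenal cortex markers were also present and moved upward. Of 15 measured, 3 rose (20%; median 0.34), and their mean log2 level was 7.16 to 7.17 untreated and 7.51 to 7.54 after histamine. CYP11A1, the first enzyme of steroid synthesis, went from 6.98, 7.08 and 7.02 to 8.07, 7.96 and 7.85 (0.93, SE 0.13, adjusted p 5.65e-05). HSD3B1, a later enzyme of the same pathway, rose by 0.83 (SE 0.06) and the nuclear receptor NR0B1 by 0.87 (SE 0.22, adjusted p 0.00743). CYP17A1 changed by 0.58 and STAR, which brings cholesterol into mitochondria, by 0.43 (adjusted p 0.00427), both under 1.5-fold. SULT2A1 was dim, and with any 1 array left out 3 to 5 of the markers rose.

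Fibroblast and mural markers that rose were CNN1 (smooth muscle calponin; 1.24, SE 0.10), COL1A2 (a chain of type I collagen; 0.69, SE 0.09) and MGP (matrix Gla protein; 0.78, SE 0.06), of 17 measured (17.6%; median 0.26). The MGP probe sets disagreed: the brightest over the 12 arrays was higher, while the other 3 changed by -0.55 to -0.78. The probe set at -0.78 was called lower. In the untreated arrays it was brighter (9.20, 8.97 and 8.93) than the chosen probe set (8.82, 8.71 and 8.77). Averaged over probe sets COL1A2 changed by 0.53, under 1.5-fold. Endothelial markers had 1 rise and 2 falls among 17 (5.88% and 11.8%, against 3.77% and 3.21% of all genes), with VWF, KDR and FLT1 dim. CLDN5 rose by 0.62 from a dim level, and by 0.52, short of 1.5-fold, without histamine repeat 3. SELP and TEK fell, the last at -0.81 (SE 0.08). The list had 0 calls in the probe sets above median brightness, where CLDN5, SELP and TEK were not tested. Leukocyte markers had 3 rises among 19 (15.8%; median 0.08), S100A12 (1.16, SE 0.16), S100A8 (0.81, SE 0.10) and CORO1A (0.70, SE 0.08), with PTPRC, the common leukocyte antigen, dim; S100A12 and S100A8 were not among the probe sets above median brightness, which left 1 rise. Of Schwann and glial markers 0 of 6 were called, and of mast cell markers 0 of 4 (limma; 4 and 0 had an unadjusted p under 0.05), and the histamine-making enzyme HDC was dim. The part of these other cells in the changes of the cultures was not tested.

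**Figure D5:**
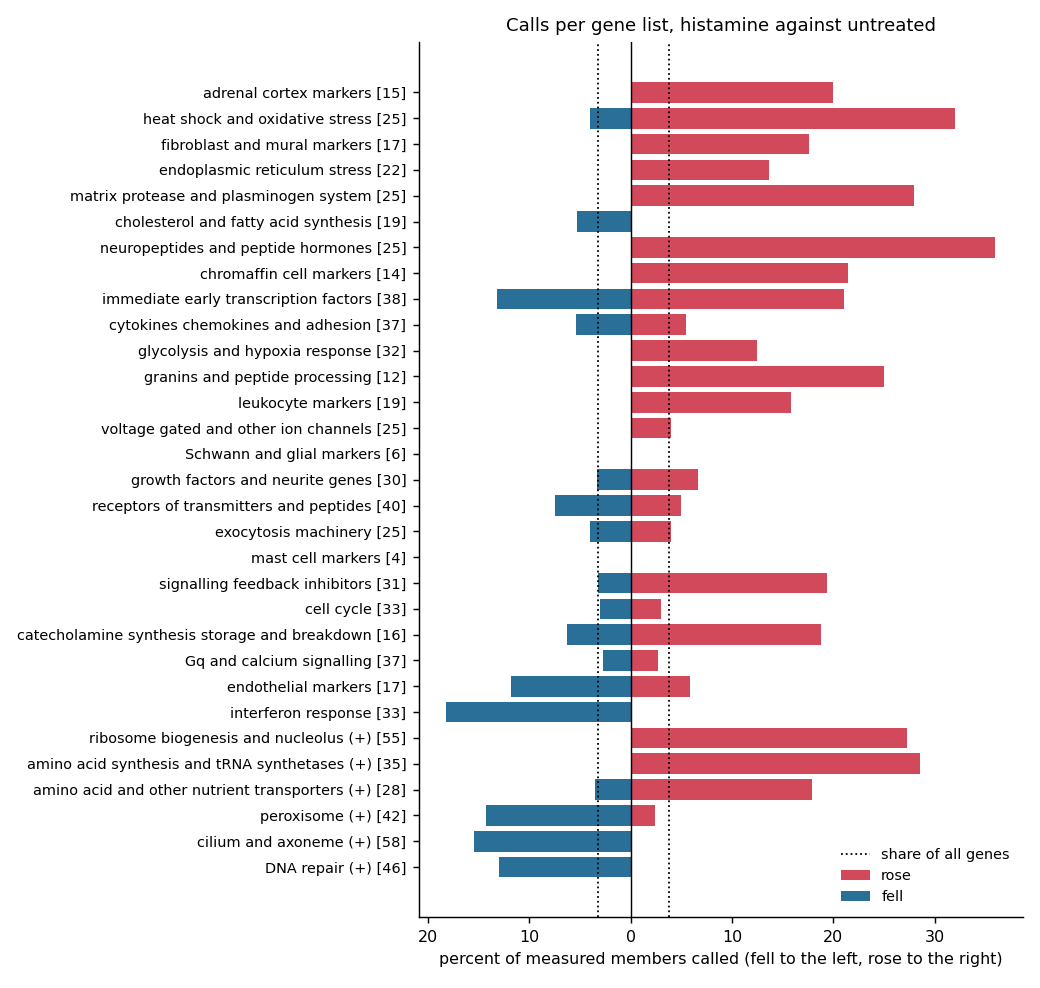
Bars give the percent of measured members of each gene list that rose (right) or fell (left) after histamine. Brackets give the number of measured genes, and dotted lines mark the shares over all 9155 genes (3.77% and 3.21%). Lists marked (+) were added after the values were seen, and the other lists were chosen with earlier results of these data known. Neuropeptides reach 36% on the right and interferon response genes 18.2% on the left.

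The 25 largest rises held further genes outside the lists. LOC407218, named by its locus alone, went from 5.58, 5.64 and 5.73 to 8.25, 8.18 and 8.22 (2.57, SE 0.08, adjusted p 1.98e-11). SMYD2, a lysine methyltransferase, went from 7.49, 7.56 and 7.61 to 9.98, 9.95 and 9.83 (2.37, SE 0.07, adjusted p 9.35e-12), and the imprinted gene MEST from 8.60, 8.58 and 8.45 to 10.92, 10.76 and 10.76 (2.27, SE 0.06, adjusted p 3.1e-12). The 4 MEST probe sets disagreed: another, as bright in the untreated arrays (8.68, 8.55 and 8.73), changed by -0.20 and was not called, and the remaining ones changed by 0.08 and 1.33. Kinase genes among them were DCLK1, a microtubule-associated kinase (9.06, 9.09 and 9.10 to 11.34, 11.26 and 11.27; 2.21, SE 0.05), and RPS6KA3, a kinase downstream of ERK (2.07, SE 0.13). PSAT1, a serine synthesis enzyme, went from 9.06, 9.02 and 9.13 to 11.10, 11.08 and 11.09 (2.02, SE 0.04, adjusted p 5.03e-13). Its dimmer probe sets changed by 1.33 and 1.49. They read 7.18 and 7.81 in histamine repeat 3, against 8.90 to 9.17 in repeats 1 and 2. The neuronal calcium sensor VSNL1 went from 9.02, 9.05 and 9.01 to 10.97, 10.91 and 10.92 (1.91, SE 0.05). The others, by falling change from 1.90 to 1.70, were TNFSF8, CHST2, FAM171A1, VLDLR, UPP1 and LMCD1.

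The 25 largest falls were smaller in size than the 25 largest rises. OMG, a myelin-associated inhibitor of neurite growth, went from 7.28, 7.33 and 7.34 to 5.42, 5.64 and 5.62 (-1.76, SE 0.12, adjusted p 8.49e-08). DDO, D-aspartate oxidase, went from 8.05, 8.04 and 8.05 to 6.20, 6.52 and 6.47 (-1.65, SE 0.09, adjusted p 1.34e-08). The groups of arrays were apart for each of the 25, since the rule that chose them required it. Also among them were PYROXD2 (-1.58), DHRS12 (-1.57), the mitochondrial deacetylase SIRT3 (-1.13), CENPT, a centromere protein (-1.44), and ALG13, of protein glycosylation (-1.28). Signalling genes that fell were PIK3IP1, an inhibitor of phosphoinositide 3-kinase (-1.17, SE 0.07), RPS6KA5, a kinase of CREB and histone H3 (-1.17, SE 0.09), and ZAP70 (-1.10, SE 0.12). ZMYND12 and MDH1B fell to dim levels (-1.32 and -1.10), and BRINP1, SLC25A34, MCF2L, DZIP3, NTHL1, CFAP126, C15H11orf16, SLC6A15, HACL1 and RPE changed by -1.24 to -1.06. RPE probe sets disagreed, and its mean over probe sets was -0.24.

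Setting histamine beside the cytokine arrays shows which of its changes were also present there, with the reservation that the doses and times differ (6 h against 24 h). The direct contrast called 1488 probe sets between histamine and IL6 (6.2%) and 2280 between histamine and IFNα (9.49%). TAC1 stood 4.70 above the IL6 arrays and 4.86 above the IFNα arrays, and VIP 3.25 and 4.18 above them. PNMT was 3.01 above the IL6 arrays (6.94, 7.49 and 7.79; SE 0.23, adjusted p 2.04e-07) and 1.64 above the IFNα arrays (8.55, 8.38 and 9.38; SE 0.23, adjusted p 4.06e-05). SMYD2 was 2.55 above IL6 and 2.51 above IFNα.

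Several genes that rose after histamine stood close to that level in the IL6 arrays. NTRK2 read 9.39, 9.43 and 9.46 after IL6, 0.11 below the histamine mean (SE 0.06, adjusted p 0.167), and 6.59, 6.49 and 6.67 after IFNα, 2.96 below it (SE 0.06). KCNE1 read 7.69, 7.69 and 7.62 after IL6, with a difference of -0.08 (SE 0.08, adjusted p 0.53). GAL read 13.10, 13.13 and 13.11 after IL6, 0.19 below histamine (SE 0.03, adjusted p 9.6e-05). A p above the threshold does not show that these levels were equal.

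Other genes parted between histamine and IL6. NR4A2 was 1.68 higher after histamine than after IL6 (6.65, 6.89 and 6.54; SE 0.09, adjusted p 5.16e-09), and CYP11A1 was 2.21 higher (5.98, 5.74 and 5.54; SE 0.13, adjusted p 1.41e-08). IL18 was 1.63 higher. ATF3 was 1.80 lower after histamine than after IL6 (log2 difference -1.80), and TRIB1, which rose after histamine, stood 0.97 higher still after IL6 (log2 difference, histamine minus IL6, -0.97). CREM and RASD1 were 1.21 and 0.99 higher after histamine than after IL6.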

How the data were processed

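Bovine chromaffin cell RNA was measured on 12 Affymetrix arrays. The deposited values are log2 expression computed by the authors with RMA, per the submitters' processing notes; its version and a genome build were not given in the sources used here. Array means in the deposited log2 values were equal to 2 decimals, so values are relative within an array. Of 24128 probe sets, 112 controls were left out. A probe table named 13292 of the remaining 24016 with 1 symbol, 86 with several and 10638 with none; 13263 were looked up by Entrez ID. Of the 1369 called probe sets 543 had no single symbol.

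A group-means model was fitted to all 12 arrays with limma 3.58.1 (R 4.3.3; lmFit, eBayes with trend; 8 residual degrees of freedom) and p-values were adjusted by Benjamini-Hochberg. A call needed an adjusted p under 0.05 and a 1.5-fold change. Each gene was read from its brightest probe set. For a single value an exact permutation test of 3 against 3 arrays cannot go below 0.1. No detection calls were used, and the number of arrays limits precision. Tested on simulated data of 24016 probe sets for histamine against untreated, the fit recovered 52% of 1.5-fold, 98% of 2-fold and 100% of 3-fold changes with 0 false calls. A true 1.5-fold change lies on the fold minimum itself, which limits its recovery. The simulated noise was independent between probe sets and few of them were changed. These figures therefore check the code and do not measure error in the real arrays.

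The named genes are the 25 largest rises and falls among called genes with separated arrays, every called member of the gene lists, and a set of chromaffin, receptor and immediate early genes; a few more, such as DDC and ISG15, were picked with values in view. The comparison, members and lists were chosen with earlier results of these data known. Of the set, HRH2, HRH3, NPY, NR4A3, PER1, RGS2, RGS4 and DUSP6 had no probe set of their own symbol. Alternatives were other variance, normalization, fold and probe-set rules, the replicate block, and each array left out.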

Additional observations from a re-analysis of the deposited data

How the results depend on the processing

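Histamine changed 1369 probe sets, and this count stayed within 1.5 times under every other variance, normalization and probe-set setting tried; with 1 array left out it ran from 1364 to 1450 (against IL6 1410 to 1777, against IFNα 2274 to 2356). The fold minimum set the count. With no minimum, 7581 probe sets passed (against IL6 7901, against IFNα 8915), at 1.2-fold 5723 (5933 and 7003), and at 2-fold 256 (333 and 723). Same-numbered arrays of the untreated and histamine groups deviated together with correlations of 0.26, 0.05 and 0.09, against -0.17 to 0.09 for differently numbered ones. Same-numbered IL6 and IFNα arrays gave 0.53, -0.07 and 0.60. The main fit did not take the numbers as pairs. A fit with the replicate block called 1384 probe sets (724 higher, 660 lower), 1369 of them shared, and lost no named call. It took the glycolysis and hypoxia list from 4 to 7 rises. Median centring moved the share of higher calls from 52.4% to 58.6%.

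Of 134 named genes that were called, 25 lay below median brightness and were not tested in the setting limited to brighter probe sets. Of the 109 that were tested in all 27 alternatives 48 kept the call in each, and 15 of the 25 kept it in each of the others. Over the 134, 67 fell below a 2-fold minimum and 16 were lost when 1 array was left out. Leaving out histamine repeat 3 lost 9 of them, the most for any 1 array. The weight of that array was 0.49, against 0.83 and 2.07 for the other histamine arrays. Dimmer probe sets of JUN, ITPR1, PIK3IP1, PSAT1, MEST and FOS read lower in it than in histamine repeats 1 and 2. Averaging all probe sets of a gene reversed MGP (-0.27), CHGA (0.018) and LDHA (-0.11), and ended the calls of FDFT1 (-0.29), NR0B1 (0.56), PFKFB3 (0.38) and TRIB1 (0.54) besides those given above. A robust spread estimate ended the calls of HMOX1, P4HA2, PFKFB3, STC1, TPI1 and TRIB2, and a test against 1.2-fold ended those of SLC18A2, SOX4, NR0B1, CHRNB4 and CLDN5, among 12. Array weights ended those of CHRNB4, CLDN5 and FDFT1. Median centring ended those of FDFT1 and SYT11. Of 41 called genes with several probe sets, 27 had one that was not called the same way, EGR1, VLDLR, VSNL1, PTGFR and NEFL among them. A test against 1.2-fold moved the counts of called members to 5 for Gq and calcium signalling, 6 for endoplasmic reticulum stress, 4 for cell cycle and 1 (a fall) for glycolysis and hypoxia. Adrenal cortex markers had 5 rises with array weights, median centring or cyclic loess, and fibroblast markers 1 rise with probe sets averaged. The causes were not tested. Signal may limit the measured change of dim genes and of those near the top of the scale, which was not tested either.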

Other observations

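After the values were seen, 6 further gene lists were drawn up with the changed genes in view, so their counts describe these arrays and support nothing; the shares over all genes are 3.77% rising and 3.21% falling. Ribosome biogenesis and nucleolar genes were the list of these with the highest median, 0.42, and 15 of 55 measured rose (27.3%). Among them FBL, the methyltransferase of box C/D particles, went from 9.95, 10.00 and 9.99 to 10.71, 10.75 and 10.77 (0.76, SE 0.04, adjusted p 7.56e-09). GAR1 of the box H/ACA particles rose by 0.93 (SE 0.08), and the nucleolar GTPase GNL3 by 0.91 (SE 0.08). Relative to the untreated mean, the list's mean was 0.42 to 0.47 in the histamine arrays and -0.10 to 0.10 in the IL6 arrays. NHP2, TSR1 and WDR75 lost the call when 1 array was left out, and 13 to 17 members rose across those fits.

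Of 35 genes of amino acid synthesis and tRNA charging 10 rose (28.6%; median 0.32), with 8 to 10 rises when 1 array was left out. PSAT1 (2.02) was joined by MTHFD1L (0.82, SE 0.07) and MTHFD2 (0.77, SE 0.08) of mitochondrial folate metabolism. The synthetase genes GARS1 (10.90, 10.94 and 10.86 to 11.89, 11.89 and 11.90; 0.99, SE 0.03), MARS1 (0.88, SE 0.07) and YARS1 (0.75, SE 0.05) rose as well. Of 28 transporters 5 rose and 1 fell (17.9% and 3.57%; median 0.01). They were the glutamine transporter SLC1A5 (1.51, SE 0.19), SLC7A5 and its heavy chain SLC3A2, which form a large neutral amino acid exchanger (1.09, SE 0.05, and 0.68, SE 0.10), SLC7A1 (0.82) and SLC1A4 (0.74), against a fall of SLC6A15 (-1.08).

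Among the falling lists, 9 of 58 cilium and axoneme genes fell (15.5%; median -0.17), including IFT122 of intraflagellar transport (-0.79, SE 0.06), DYNLRB2 (-0.93, SE 0.06) and DRC3 (-0.76, SE 0.10). Of 42 peroxisome genes 6 fell and 1 rose (14.3% and 2.38%; median -0.14), with ACOX2, an acyl-CoA oxidase, at -0.89 (SE 0.05) and CRAT, carnitine acetyltransferase, at 0.97 (SE 0.06). Of 46 DNA repair genes 6 fell (13%; median -0.17), among them the base excision genes NTHL1 (-1.12, SE 0.10) and XRCC1 (-0.82, SE 0.08) and the damage sensor XPC (-0.90, SE 0.06). In the probe sets above median brightness 5 cilium genes fell. With 1 array left out, 8 to 11, 4 to 6 and 5 to 6 members of these lists fell.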
